A study of Mus musculus with 4 samples.

Results

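The Dppa genes and Utf1 are a group of small genes whose transcripts mark mouse embryonic stem cells (mESCs). The 5 genes described here, Dppa2, Dppa3, Dppa4, Dppa5a and Utf1, were taken by their symbols from the 37620 genes of the count table. All 5 passed the filter on low counts, as did 16264 genes in all. They were chosen partly because Utf1, Dppa2 and Dppa5a had been seen lower in one of the groups, so their differences between the groups are given as descriptions, with no p-value.

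RNA-seq compared mESCs with the O-GlcNAcylation site of CTCF, the insulator protein that anchors chromatin loops, intact or removed. Both groups derive from CTCF-EGFP-AID mESCs, in which the tagged endogenous CTCF is degraded when auxin is added to the medium. Both were grown on gelatin in serum medium with LIF. In the paper, both lines received auxin for 2 days, so that exogenous CTCF replaced the endogenous protein before the functional experiments. The auxin time of the RNA-seq cells is not stated separately. WT_CTCF mESCs carry exogenous wild-type CTCF and MUT_CTCF mESCs carry exogenous CTCF in which alanine replaces the threonine that carries the sugar. Each line is a clone picked for a level of exogenous CTCF close to the endogenous one, so the line and the mutation cannot be told apart. Each line has 2 biological replicates, and nothing in the labels ties a replicate number to a batch. The p-values set the difference between the lines against the spread of replicates within a line, and not against a spread between clones.

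DPPA2 and DPPA4 are SAP domain proteins that bind each other, sit at promoters in pluripotent cells, and activate Dux and the Zscan4 genes of the totipotent-like state. DPPA3, also known as Stella or PGC7, protects the maternal genome against demethylation and binds the DNA methylation cofactor UHRF1. DPPA5A, also called ESG1, is an RNA-binding protein with a KH domain, and UTF1 is a chromatin protein of undifferentiated cells whose gene is switched on by OCT4 and SOX2.

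Total counts per library ran from 40524694 to 40977464, and the 5 genes together took 0.108% to 0.119% of them. The WT_CTCF replicates differed by 3.64 times the sampling noise (chi-square per degree of freedom) and the MUT_CTCF replicates by 4.35 times, against 6.66 to 7.31 times for libraries of different groups. Ctcf itself, for which the counts do not separate the endogenous from the exogenous transcript, had 18273 and 18625 counts in WT_CTCF and 18954 and 19233 in MUT_CTCF (log2 fold change 0.04, SE 0.03, adjusted p = 0.499, edgeR's quasi-likelihood test). The mESC label was met by its markers, with a summed level of 7572 to 7637 CPM (counts scaled to an equal library total) over 10 genes in the 4 libraries.

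Sequence sets what can be counted for these genes, because the authors counted only reads with a single place in the genome, and the Dppa genes have many processed copies. In the mm9 genome, 91.0% of the Dppa5a transcript lay in stretches of at least 50 bases with an exact copy elsewhere. The share was 81.1% for Dppa2, 81.0% for Dppa4 and 70.3% for Dppa3, and Utf1 had no such stretch. Of the possible 50-base reads, 36.7% were unique in the genome for Dppa5a, 44.7% for Dppa2, 52.3% for Dppa4, 74.9% for Dppa3 and 100% for Utf1. The read length is not given in the sources used here, but the authors removed reads shorter than 50 bases. At 50 bases, the shortest length kept, the Dppa genes would be counted over part of each transcript and Utf1 over the whole of it. Longer reads could be unique over more of each Dppa transcript.

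**Figure D1:**
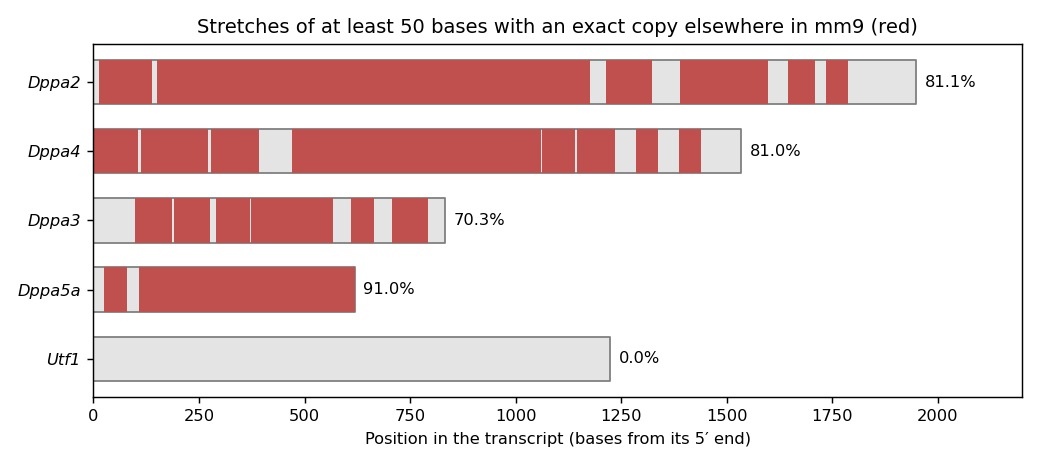
Each grey bar is a transcript of one of the 5 genes, drawn along its length in bases from its 5′ end, and red marks stretches of at least 50 bases that have an exact copy elsewhere in mm9, with the share at the right. Red covers 91.0% of Dppa5a, 81.1% of Dppa2, 81.0% of Dppa4, 70.3% of Dppa3 and none of Utf1.

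The annotated relative of Dppa5a is Dppa5b, a gene on the same chromosome that differs from it at 9 of 357 coding bases (97.5% identity) and has the last 245 bases of the Dppa5a transcript in identical form. A locus with no annotated gene, at chr9:78119870-78120853, holds the same exact stretches of Dppa5a. The first 120 coding bases of both genes, 5′ to 3′ as in mm9, are shown because they hold 3 of the differences by which a read can be told apart; capitals mark the bases that differ.

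Dppa5a: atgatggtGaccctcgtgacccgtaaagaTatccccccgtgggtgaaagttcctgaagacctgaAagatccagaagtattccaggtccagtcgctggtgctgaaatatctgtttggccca

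Dppa5b: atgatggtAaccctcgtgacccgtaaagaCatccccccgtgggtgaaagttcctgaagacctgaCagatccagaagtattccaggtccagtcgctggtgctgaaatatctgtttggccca

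The counts of the copies were small beside those of the genes. Dppa5b had 28 and 30 counts in WT_CTCF and 29 and 20 in MUT_CTCF, so the libraries overlapped. Over the rows of Dppa5b and of annotated pseudogenes or predicted genes at the copies, the highest sum in a library was 57 counts for Dppa5a, 26 for Dppa4, 16 for Dppa2 and 1 for Dppa3, at most 1.37% of the count of the gene copied. Copies also lie within Dmgdh and Cacna1d (of Dppa3) and Pigp (of Dppa5a), which have transcripts of their own, reached 1287, 30 and 381 counts, and are not in these sums. Reads that fit both a gene and a copy are in neither count, and their part in the values below was not tested. The remaining annotated Dppa gene, Dppa1, had 12, 5, 0 and 6 counts (WT_CTCF replicates 1 and 2, then MUT_CTCF) and did not pass the filter.

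Per length of exon, the order of the levels was the same in both groups: Dppa5a, Utf1, Dppa4, Dppa2 and Dppa3. In WT_CTCF mESCs the level of Dppa5a was 1508 ± 64.4 CPM per kb (SD, n = 2), that of Utf1 79.2 ± 0.099, that of Dppa4 35.1 ± 0.083, that of Dppa2 34.3 ± 0.357 and that of Dppa3 22.0 ± 0.031. On this scale Dppa5a was 68.6 times the level of Dppa3, and it alone gave 79.2% to 80.9% of the counts of the 5 genes. By its level per length, Dppa5a stood at percentile 99.9 of the tested genes and Dppa3 at 80.5. Dppa4 and Dppa2 were neighbours in the order with ranges of 35.0 to 35.1 and 34.0 to 34.5 CPM per kb in WT_CTCF, and of 30.4 and 28.9 to 29.8 in MUT_CTCF, so they did not overlap but lay close together. This order depends on the length used. An alternative, tried after the values were seen, took all reads as 50 bases long, the shortest length kept. Per kb of unique 50-base read starts, Dppa5a was 133.6 times Dppa3 in WT_CTCF, and Dppa2 stood above Dppa4, with 78.6 ± 0.820 against 69.3 ± 0.164 CPM per kb in WT_CTCF and 67.3 ± 1.52 against 60.1 ± 0.081 in MUT_CTCF (SD, n = 2 each).

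Dppa2 and Dppa4 lie next to each other on the plus strand of chromosome 16, at chr16:48310590-48319836 and chr16:48283848-48294405 (mm9), with a gap of 16184 bases and no other exon over either. Dppa2 (ENSMUSG00000072419, 7 exon blocks) had 2698 and 2736 counts in WT_CTCF mESCs and 2388 and 2282 in MUT_CTCF mESCs. Both MUT_CTCF libraries were below both WT_CTCF libraries. The mean normalized count was 2722 ± 28.4 in WT_CTCF and 2330 ± 52.7 in MUT_CTCF (SD, n = 2 each), a log2 fold change of -0.22 (SE 0.056), a change of -14.4%. In a bulk sample, fewer cells with the transcript and less of it per cell cannot be told apart.

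Dppa4 (ENSMUSG00000058550, 7 exon blocks) had 2195 and 2186 counts in WT_CTCF and 1916 and 1894 in MUT_CTCF. The replicates of each line were closer to each other than those of Dppa2, and the groups did not overlap. The mean normalized count was 2195 ± 5.20 against 1901 ± 2.55, a log2 fold change of -0.21 (SE 0.062), a change of -13.4%. The ratio of Dppa2 to Dppa4 counts was 1.23 and 1.25 in WT_CTCF mESCs and 1.25 and 1.20 in MUT_CTCF mESCs: the partner genes were lower by like amounts.

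Utf1 (ENSMUSG00000047751, 2 exon blocks, chr7:147129688-147131011 on the plus strand) had 3952 and 3956 counts in WT_CTCF and 3346 and 3496 in MUT_CTCF. Its groups did not overlap either, and the lower library of WT_CTCF stood above the higher of MUT_CTCF by more than the MUT_CTCF replicates stood apart. The mean normalized count was 3962 ± 4.96 against 3415 ± 138, a log2 fold change of -0.21 (SE 0.049), a change of -13.8%. Utf1 is the gene of the 5 with no exact copy of 50 bases elsewhere.

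The promoter of Utf1, from 250 bases before its start to 50 after, is shown as the only one of the 5 in the RefSeq table used (GRCm38.p6, chr7:139943606-139943905, plus strand), because CTCF is the protein that was altered. Capitals mark CCCTC and its reverse complement, the letters that give CCCTC-binding factor (CTCF) its name. The binding motif of CTCF was not searched for, so the marked letters are not CTCF sites.

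Utf1: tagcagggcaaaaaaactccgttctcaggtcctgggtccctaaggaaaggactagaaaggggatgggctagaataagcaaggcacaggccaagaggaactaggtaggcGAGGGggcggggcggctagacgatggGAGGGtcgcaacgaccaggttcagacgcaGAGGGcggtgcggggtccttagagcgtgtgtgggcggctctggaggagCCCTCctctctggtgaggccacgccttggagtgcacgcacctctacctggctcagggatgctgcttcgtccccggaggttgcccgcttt

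The letters CCCTC occurred once on the plus strand and 3 times on the minus strand, and 66.0% of the 32851 promoters of this length held them at least once. The promoter had 17 CpG against a median of 7 over all promoters, and 62% G and C. The octamer ATGCAAAT (1.74% of promoters), the E-box CACGTG (7.15%) and TATAAA (13.6%), searched on both strands, did not occur in it. These matches describe the letters of this window only.

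Dppa5a (ENSMUSG00000060461, 3 exon blocks, chr9:78214859-78215984 on the minus strand) had 39153 and 36828 counts in WT_CTCF and 35855 and 35382 in MUT_CTCF. WT_CTCF replicate 1 stood above the other 3 libraries, which were close together, while both MUT_CTCF libraries were below both WT_CTCF libraries. The mean normalized count was 38065 ± 1627 against 35549 ± 4.15, a log2 fold change of -0.10 (SE 0.025), a change of -6.61%. Without WT_CTCF replicate 1 the log2 fold change was -0.055, and without WT_CTCF replicate 2 it was -0.14.

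Dppa3 (ENSMUSG00000046323, 5 exon blocks, chr6:122576428-122580290 on the plus strand) was the gene whose groups overlapped. It had 798 and 799 counts in WT_CTCF and 828 and 691 in MUT_CTCF, so MUT_CTCF replicate 1 was the highest library and MUT_CTCF replicate 2 the lowest. The mean normalized count was 800.1 ± 1.14 against 757.6 ± 89.5, a log2 fold change of -0.078 (SE 0.097). Without MUT_CTCF replicate 2 it was 0.036 and without MUT_CTCF replicate 1 it was -0.20, so no direction can be given.

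**Figure D2:**
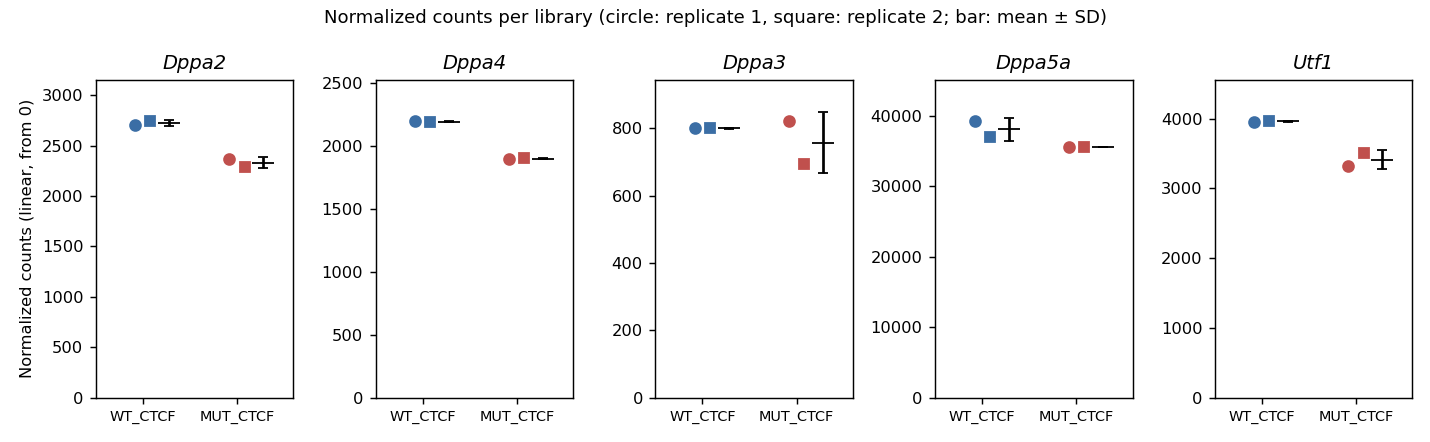
Normalized counts (linear axes from 0, one panel per gene) of Dppa2, Dppa3, Dppa4, Dppa5a and Utf1 in the 2 WT_CTCF and 2 MUT_CTCF libraries, circles for replicate 1 and squares for replicate 2, with the mean ± SD. Both MUT_CTCF points lie below both WT_CTCF points for Dppa2, Dppa4, Dppa5a and Utf1, and the groups overlap for Dppa3.

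Each of the 5 differences was far below the 2-fold limit of the study. Dppa2, Dppa4 and Utf1 differed by -14.4% to -13.4% in MUT_CTCF, and pairs of a MUT_CTCF with a WT_CTCF library had ratios of 0.836 to 0.876 for Dppa2, 0.864 to 0.869 for Dppa4 and 0.837 to 0.887 for Utf1. The ratios were 0.906 to 0.963 for Dppa5a and 0.867 to 1.03 for Dppa3. At the criterion of the study (a fold change above 2 and p under 0.05 before adjustment), none of the 5 was called, and 1.30% of all tested genes were. At an adjusted p under 0.05 in edgeR's quasi-likelihood test, 4 of the 5 were among the genes called lower and none among those called higher, against 1.61% and 1.56% of all tested genes (3.17% in either direction), and both MUT_CTCF libraries lay below both WT_CTCF libraries for 4 of 5, against 22.3% of all tested genes. The number of the 5 called lower was 3 with DESeq2 and with library size only. It was 0 with no filter on low counts and 4 with the replicate number as a block. Since the genes were picked on this comparison, nothing is read from these counts.

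**Figure D3:**
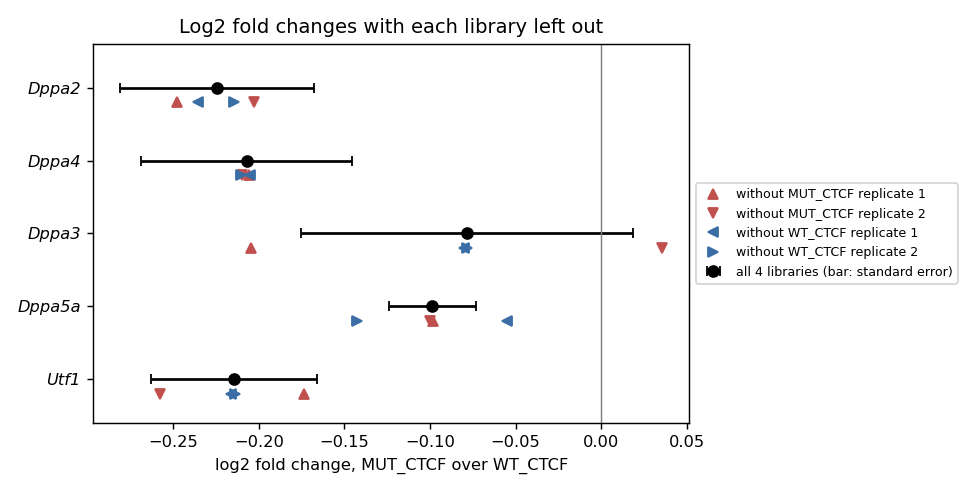
Log2 fold changes of the 5 genes (MUT_CTCF over WT_CTCF, horizontal axis) with all 4 libraries and with each library left out in turn. The values keep to -0.25 to -0.20 for Dppa2, -0.21 for Dppa4 and -0.26 to -0.17 for Utf1, and Dppa3 runs from -0.20 to 0.036.

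The median log2 fold change of the 5 genes was -0.21 and that of all tested genes 0.0034. Of the genes within 2-fold of the mean count of Dppa2, 0.831% had a log2 fold change as low or lower, and for Utf1 this share was 0.749%. It was 1.90% for Dppa4, 7.72% for Dppa5a and 25.1% for Dppa3. These shares place the genes among others of their abundance and are descriptions, because the genes were chosen for their direction.

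**Figure D4:**
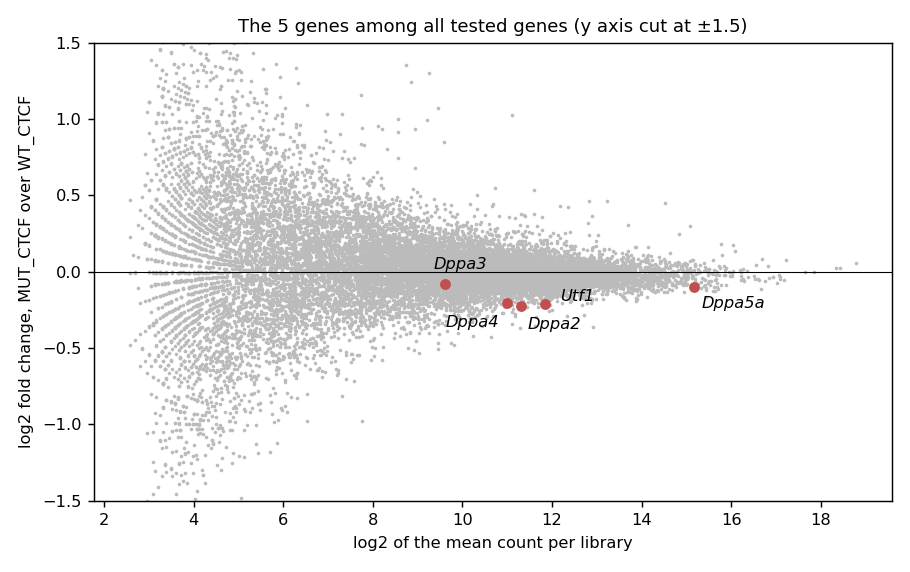
All tested genes as grey points by the log2 of their mean count (horizontal) and their log2 fold change (vertical, cut at 1.5 either way, which leaves out 143 genes), with the 5 genes named. Dppa5a sits far to the right, where genes are few, and Dppa2, Dppa4 and Utf1 sit near its lower edge at their counts.

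DPPA2 and DPPA4 dependent genes were the first list set beside the members: Dux, Zscan4, Zfp352, Tdpoz and Usp17l genes, Nkx2-5 and Syce1. Of 21 genes, 17 were matched to the table and 16 were tested. All 16 had a log2 fold change below 0 with TMM scaling, against 15 with library size only, where Syce1 turned, 15 with the replicate block and 14 to 16 with 1 library left out. The median was -0.32 and the range -0.61 to -0.01, and 49.2% of all tested genes were below 0. One passed the test as lower and none as higher, where 1.61% and 1.56% of all tested genes did. The 1 gene was Zscan4d, a SCAN and zinc finger gene of the 2-cell stage. It fell from 627 and 613 counts to 421 and 440 (log2 fold change -0.53, SE 0.114, adjusted p = 0.00270, edgeR's quasi-likelihood test). At an unadjusted p under 0.05 there were 7 lower and 0 higher, where 2483 of all 16264 tested genes passed in either direction. DESeq2 gave 14 of the 16 no adjusted p. In 11 of the 16 both MUT_CTCF libraries were below both WT_CTCF libraries, against 22.3% of all tested genes. Zscan4c, next in the cluster, had 379, 409, 341 and 303 counts, and Dux, the upstream activator, had 13, 14, 11 and 10. The summed level of the list was 175.1 and 169.2 CPM in WT_CTCF against 147.3 and 147.2 in MUT_CTCF. Its Zscan4 and Usp17l genes are near-identical copies of one another, so their rows are not independent and reads may be split among them.

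**Figure D5:**
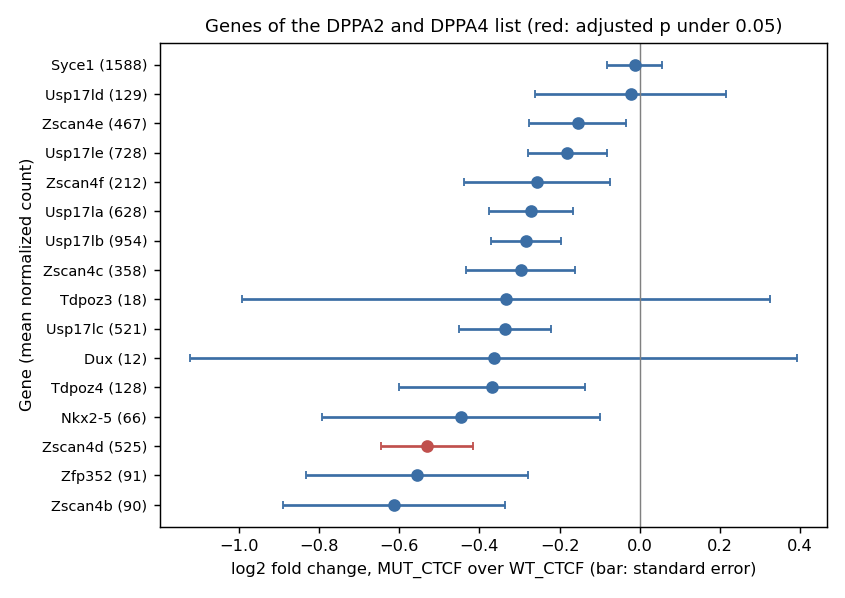
Log2 fold changes (MUT_CTCF over WT_CTCF, bars for the standard error) of the 16 tested genes of the DPPA2 and DPPA4 list, each with its mean normalized count. All 16 points lie left of 0 (15 with library size only or the replicate block), and Zscan4d, in red, is the gene with an adjusted p under 0.05.

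DPPA3 partners and the DNA methylation enzymes had 11 tested genes, 3 of them below 0, and their median log2 fold change was 0.039. Uhrf1, the cofactor that DPPA3 binds, had a log2 fold change of 0.039 (SE 0.024, adjusted p = 0.463), and Dnmt1, the maintenance methyltransferase, of 0.043 (SE 0.028, adjusted p = 0.506). Dnmt3l, the cofactor of the de novo methyltransferases, fell from 3482 and 3544 counts to 2782 and 2733 (log2 fold change -0.36, SE 0.051, adjusted p = 2.89e-06, edgeR's quasi-likelihood test). Dnmt3l shares exon positions with Aire, and the strand setting of the counting is not given in the sources used here. Dnmt3l was the 1 gene of the list that passed as lower, where 1.61% of all tested genes did. No gene of the list passed as higher by edgeR or DESeq2 (2 at an unadjusted p under 0.05).

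UTF1 regulators and partners had 9 tested genes, of which 1 passed as higher and 2 as lower, where 1.56% and 1.61% of all tested genes did. Myc, the proto-oncogene transcription factor, fell from 779 and 839 counts to 657 and 569 (log2 fold change -0.41, SE 0.101, adjusted p = 0.0115). Eed, a core subunit of Polycomb repressive complex 2, fell from 5381 and 5133 to 4824 and 4653 (log2 fold change -0.16, SE 0.043, adjusted p = 0.0304). Sox2, which switches on Utf1 with OCT4, rose by a log2 fold change of 0.10 (SE 0.027, adjusted p = 0.0358), and Pou5f1, which codes for OCT4, had -0.07 (SE 0.025, adjusted p = 0.119), all in edgeR's quasi-likelihood test.

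Other genes driven by paired octamer and Sox sites stayed near 0. Of the 6 tested in that list, Sox2, which is also in the UTF1 list, alone passed. It passed as higher, where 1.56% of all tested genes did. The median log2 fold change was -0.02, and Fgf4 had 0.014 (SE 0.029, adjusted p = 0.886) and Nanog 0.040 (SE 0.022, adjusted p = 0.380). In the list of further transcripts found in mESCs, 11 genes were tested, 8 were below 0 and the median was -0.06. Dnmt3l, which is also in the DPPA3 list, was the one that passed, as lower, where 1.61% of all tested genes did. L1td1, an RNA-binding protein, had -0.12 (SE 0.044, adjusted p = 0.132, edgeR's quasi-likelihood test). The KH domain neighbours of Dppa5a and their maternal complex had 5 tested genes, 1 of them below 0. Zbed3, a member of that complex, was the one that passed, as higher, where 1.56% of all tested genes did. It rose from 857 and 839 counts to 989 and 1101 (log2 fold change 0.30, SE 0.088, adjusted p = 0.0465, edgeR's quasi-likelihood test).

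Leaving out 1 library showed how much these calls rest on each. Without MUT_CTCF replicate 1 or without MUT_CTCF replicate 2, edgeR's quasi-likelihood test called no gene of the whole table (1651 and 1585 genes at an unadjusted p under 0.05), so each call of a list gene was lost there. Zscan4d and Dnmt3l were called without either WT_CTCF library. Myc was called without WT_CTCF replicate 1 and not without replicate 2 (adjusted p = 0.145), and Eed, Sox2 and Zbed3 were called in neither of these fits. Zbed3 was also lost with DESeq2 (adjusted p = 0.109) and Eed with scaling by library size only (edgeR's adjusted p = 0.0594), and with no filter on low counts Dnmt3l was the one of these 6 that edgeR called.

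The chromosomal surroundings of the 5 genes were described next. Of 67 genes with a start within 250 kb of one of theirs, 37 were tested. Of these, 12 were below 0, where 49.2% of all tested genes were, and the median log2 fold change was 0.05. Here a start is the lower coordinate of a gene on either strand, and the distances given are between these starts. One passed the test, where 3.17% of all tested genes did in either direction. Slc2a3, a glucose transporter gene 101.4 kb from Dppa3, rose from 63128 and 63399 counts to 71935 and 71463 (log2 fold change 0.17, SE 0.021, adjusted p = 1.39e-08, edgeR's quasi-likelihood test) and lost its call without either MUT_CTCF library. None passed as lower by edgeR or DESeq2. At an unadjusted p under 0.05 there were 1 lower and 6 higher, Slc2a3 included, where 2483 of all 16264 tested genes passed in either direction. To the left of the Dppa2 and Dppa4 pair, Gm7204, with its start at -65.2 kb from that of Dppa4, had 92 and 49 counts in WT_CTCF and 31 and 43 in MUT_CTCF (log2 fold change -0.93, SE 0.387, adjusted p = 0.212). To the right, Morc1, a germline silencing gene 120.8 kb from Dppa2, had a log2 fold change of -0.0082 (SE 0.055, adjusted p = 0.970). Gdf3, a growth factor of the TGF-beta family 21.0 kb from Dppa3, had -0.0084 (adjusted p = 0.961), and Ooep, a KH domain gene of the oocyte 9.06 kb from Dppa5a, had 0.05 (adjusted p = 0.779). Kndc1, whose start lies 49.1 kb before that of Utf1, had 43, 81, 91 and 103 counts (log2 fold change 0.64, SE 0.309, adjusted p = 0.316). Adam8, 35.1 kb to the right of Utf1, had -0.21 (SE 0.303, adjusted p = 0.821). Gsta2, with its start at -36.0 kb from that of Dppa5a, had 0.59 (SE 0.378, adjusted p = 0.496). Gm10420, 69.6 kb to the right of Dppa3, had 0.042 (SE 0.304, adjusted p = 0.972, all edgeR's quasi-likelihood test).

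Profiles over the 4 libraries were compared by the Euclidean distance of centred log2 CPM, over 11592 genes with a mean of at least 100 normalized counts. Edn1 (distance 0.0060) and BC027231 (0.0164) were nearest to Dppa2, Lrpap1 (0.0105) and Otud6b (0.0106) to Dppa4, and Fam86 (0.0076) and Tgs1 (0.0087) to Utf1. Ahsa1 (0.0034) and Mon1b (0.0068) were nearest to Dppa5a, and Unc13a (0.0186) and Aoah (0.0193) to Dppa3. The partner genes Dppa2 and Dppa4 were 0.0428 apart, with 28 genes nearer to Dppa2 and 39 nearer to Dppa4. With 4 libraries, such likeness is a description only.

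Markers of other cell types are given because these genes are lost when mESCs differentiate. Of the trophectoderm list, 2 of 5 tested genes were called lower, against 1.61% of all tested genes. These were Cdx2 (log2 fold change -0.97, adjusted p = 0.000227) and Krt8 (-0.30, adjusted p = 0.0319, edgeR's quasi-likelihood test, and 0.0632 with DESeq2). Both calls were lost without either MUT_CTCF library and with no filter. Elf5 (log2 fold change -0.12), Krt18 (0.086) and Hand1 (0.12) were not called, and the last 2 lay above 0. Krt8 was also lost without WT_CTCF replicate 1 (adjusted p = 0.200), without WT_CTCF replicate 2 (0.131) and with library size only (0.0509, all edgeR), and DESeq2 gave Cdx2 no adjusted p. The summed level of the list was 48.4 and 45.3 CPM in WT_CTCF and 37.8 and 40.4 in MUT_CTCF. Of the primitive endoderm list none of 5 passed by edgeR (2 higher at an unadjusted p under 0.05), and its sums were 15.0 and 15.5 CPM against 16.2 and 20.7. Gata6 had the highest log2 fold change of that list, 0.95, with 57 and 50 counts in WT_CTCF and 99 and 108 in MUT_CTCF (adjusted p = 0.0733). Dab2, the 1 of the 5 below 0, had 210 and 243 against 220 and 173 (-0.21, adjusted p = 0.644, both edgeR's quasi-likelihood test). Pdgfra had 153 and 107 against 109 and 227. The groups overlapped for Dab2, Pdgfra and Gata4. None of the mesoderm (5 tested), neural ectoderm (3), formative epiblast (2) or fibroblast (3) markers passed by edgeR, with 1 formative gene higher at an unadjusted p under 0.05, and Fgf5 and Lum were at 0 in all 4 libraries. The summed levels of neural ectoderm markers were 64.1 and 63.7 CPM in WT_CTCF and 68.1 and 69.6 in MUT_CTCF, and those of fibroblast markers 21.1 and 21.7 against 23.3 and 25.0, so neither list overlapped between the groups. Those of mesoderm (22.4 and 20.9 against 21.6 and 21.1) and formative epiblast (92.6 and 97.7 against 92.8 and 98.8) did. Their part in the levels of the Dppa genes and Utf1 was not tested.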

How the data were processed

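RNA-seq was made from 2 WT_CTCF and 2 MUT_CTCF libraries. Per the labels and the study's methods, the authors trimmed reads with Trim Galore (0.4.4), aligned them to mm9 with STAR and counted uniquely mapped reads per gene with HTSeq (0.9.1), and deposited raw counts without normalization. A table of the authors' own edgeR comparison (fold changes and p-values) was not used. The strand setting is not given in the sources used here.

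GENCODE M1 (NCBIM37, the same build) named 37205 of 37620 identifiers. Genes passed filterByExpr (minimum 10 counts), libraries were scaled by TMM and tested (glmQLFit, glmQLFTest) with the condition as the only term (edgeR 4.0.16, R 4.3.3), with Benjamini-Hochberg adjustment over all 16264 tested genes. SE is the log2 fold change over the root of F. For normalized counts, each library was scaled to the average effective library size. Exact transcript copies were searched with blastn 2.17.0. The main edgeR fit was tested on simulated data, and the alternative fits were not. The smallest two-sided exact permutation p of 2 against 2 is 0.333, so no single-gene permutation test was used.

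The members, lists and alternatives were chosen with earlier results of these data known. The named genes are the 5 members, other Dppa genes, Ctcf, called genes of each list (the 3 with the smallest p), nearest and called neighbours within 250 kb, and the 2 nearest profiles per member; others were named after their values were seen. Of 109 list entries, 104 were matched, some by RefSeq synonyms. Protein sequences were not used here, so coding bases of Dppa5a and Dppa5b were compared. Alternatives were DESeq2 1.42.0, its size factors, library size only, no filter, leaving out each library in turn, and the replicate number as a block.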

Additional observations from a re-analysis of the deposited data

How the results depend on the processing

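Depth was near equal, and limits lie in 2 libraries per line and in reads shared with copies. The fit called 253 genes higher and 262 lower (50.9% lower). Scaling by library size only gave 260 and 152 (36.9% lower), and moved the median of all genes from 0.0034 to 0.016. DESeq2 called 129 higher and 184 lower (58.8% lower), no filter 26 higher and 3 lower, and the study's criterion 154 higher and 58 lower. With 1 library left out, calls ran from 0 to 140 higher and from 0 to 102 lower, and none were made without either MUT_CTCF library (1651 and 1585 genes at an unadjusted p under 0.05). Same-numbered replicates did not deviate together (r = -0.02), so the numbers were not taken to pair libraries, and the replicate block gave 326 higher and 372 lower.

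The log2 fold changes of the 5 genes kept their direction except for Dppa3 without MUT_CTCF replicate 2 (0.036). Leaving out a library gave -0.20 to 0.036 for Dppa3. Dppa4 was -0.19 with library size only.

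In the lists, the DPPA2 and DPPA4 dependent genes had 0 called lower with DESeq2 (which gave Zscan4d no adjusted p) and with no filter, and 2 with the replicate block. The DPPA3 list had 1 higher with the block. The UTF1 list had 1 lower with DESeq2 (Myc had no adjusted p) and with library size only, and 0 higher and 0 lower with no filter. The octamer list had 0 higher with no filter, and the KH domain list 0 higher with DESeq2 and with no filter. With 1 library left out, lower calls ran from 0 to 1 in the DPPA2 and DPPA4, DPPA3, UTF1 and mESC transcript lists, and so did higher calls among neighbours. Higher calls in the DPPA3, UTF1, octamer, mESC transcript and KH domain lists were 0 in each of these fits. The cause of these losses was not tested.

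Among single genes, Morc1 turned to 0.0042 and Gdf3 to 0.0040 with library size only. With 1 library left out, Morc1 ran from -0.039 to 0.020, Gdf3 from -0.043 to 0.024, Unc13a from -0.19 to 0.032 and Aoah from -0.21 to 0.024, each highest without MUT_CTCF replicate 2, and Gm10420 from -0.11 to 0.21, with -0.07 without MUT_CTCF replicate 2. Per kb of unique 50-base read starts, added after seeing the data, Dppa5a was 133.6 times Dppa3 in WT_CTCF and 131.8 times in MUT_CTCF.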
